A study of Mus musculus with 6 samples.

Results

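The genes described here are 10 members of the intermediate filament family, chosen by symbol from a deposited table of 34724 genes. They are the simple epithelial keratins Krt7, Krt8, Krt18 and Krt19, the type III proteins vimentin (Vim) and desmin (Des), nestin (Nes), and the lamin genes Lmna, Lmnb1 and Lmnb2. All 10 carried an Ensembl identifier and a locus in GENCODE M21 on GRCm38. Their transcripts were counted by direct nanopore sequencing of RNA, in which native polyadenylated molecules are read without a copying step, in 3 libraries of 2H-11 and 3 libraries of SVEC4-10. The labels describe 2H-11 as tumor and SVEC4-10 as normal endothelial cells. Both are SV40-transformed lines derived from axillary lymph node of adult C3H/HeJ mice, and no treatment is given for either. Each label stands on a single line, so what the tumor label names and other differences between the lines cannot be told apart. Whether replicates were grown separately is not labelled, so the p-values cover variation from library to library, possibly all of it technical.

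Intermediate filaments are rope-like polymers that carry mechanical load in the cytoplasm and under the nuclear envelope. Keratins are obligate heteropolymers of a type I and a type II chain, and Krt8 with Krt18 is the basic combination of simple epithelia, joined by Krt7 and Krt19 in ducts and mesothelium. Vimentin polymerises by itself and is the usual cytoplasmic filament of mesenchymal and endothelial cells, desmin takes that place in muscle, and nestin is a long chain that needs a partner such as vimentin. Lamins line the inner nuclear membrane, and cells differ in their proportion of A-type lamins (Lmna, which encodes lamins A and C) to B-type lamins (Lmnb1 and Lmnb2).

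Library totals ran between 3628400 and 16798666 counted reads, the highest being SVEC4-10 replicate 3. Levels are given in CPM, the reads of a gene per 1000000 counted reads of its library, and ± gives the SD of a line (n = 3). Where a line had no read, its limit was taken as 3 reads over its summed total, that is 0.196 CPM in the 2H-11 libraries and 0.121 CPM in the SVEC4-10 libraries, and covers counting error only. Endothelial identity was weak in both lines: of 12 pan-endothelial markers, 11 stayed under 1 CPM in every library and 6 had no read at all, including Vwf, Tie1, Cldn5, Erg, Emcn and Icam2.

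The lines differed in which keratins and which accessory filament chains they transcribed, while the difference in vimentin and in each lamin did not pass the test. Of the 10 members 9 had enough reads to be tested, and Krt18 did not. In 2H-11, Nes, Krt19 and Des were higher and Krt7 and Krt8 were lower than in SVEC4-10 (quasi-likelihood test of edgeR, with p adjusted by Benjamini-Hochberg over 13187 genes and a threshold of 0.05). Across all genes tested 36.2% were called, 20.1% higher and 16.2% lower in 2H-11, against 5 of the 9 tested members. No test sets the members apart from this background. The median log2 fold change was 0.27 over the tested members and 0.00 over all tested genes, and setting Nes and Krt8 at their bounds left the members' median at 0.27. Libraries of the lines did not overlap for 6 of the 9 tested members, against 46.8% of all genes tested. In bulk RNA of a culture, fewer cells that make a transcript and less of it per cell cannot be told apart.

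**Figure D1:**
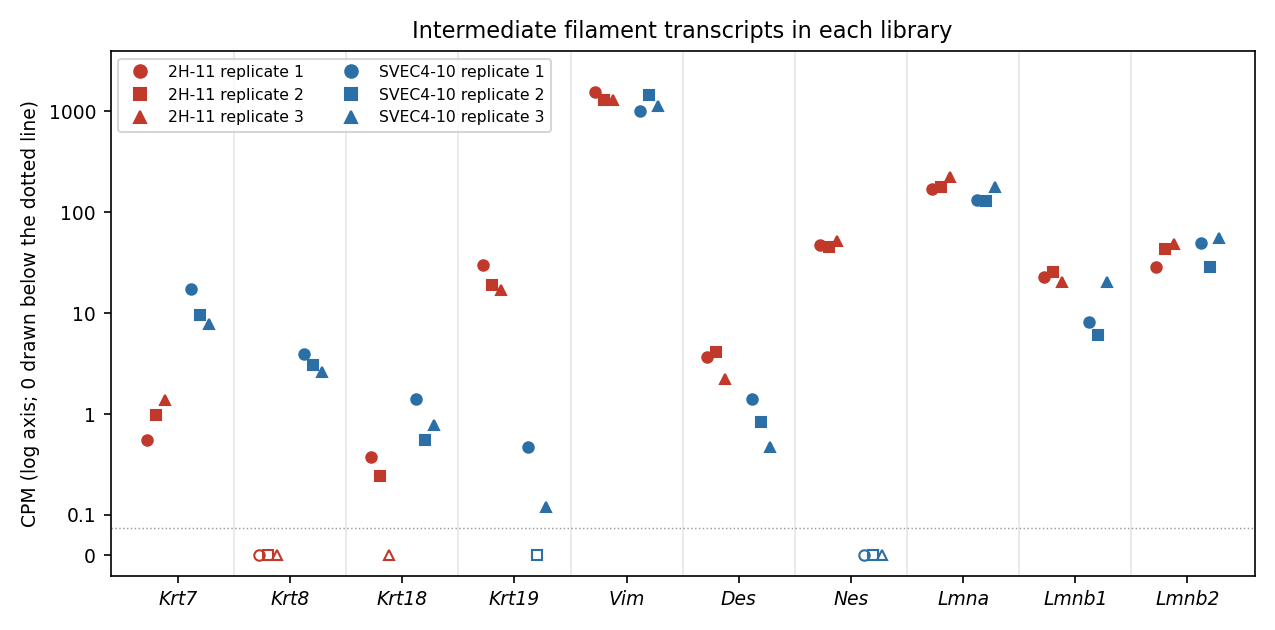
CPM of each of the 10 members in each library, on a log axis with 0 drawn as open symbols below the dotted line; red symbols are 2H-11, blue symbols SVEC4-10, and the symbol shape is the replicate. Krt8 sits at 0 in the 3 libraries of 2H-11 and Nes at 0 in the 3 of SVEC4-10, while Vim lies between 1008 and 1549 CPM in all 6.

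Among type II keratins, Krt7 (ENSMUSG00000023039, chromosome 15, 101411043 to 101430313, plus strand), typical of ducts, bladder lining and mesothelium, was lower in 2H-11. It stood at 0.558, 0.974 and 1.37 CPM in 2H-11 replicates 1 to 3, against 17.5, 9.65 and 7.80 CPM in SVEC4-10. Every 2H-11 library lay below every SVEC4-10 library, and the fold was 12.1 (log2 fold change -3.59, SE 0.44, edgeR adjusted p = 3.13e-06). Krt8 (ENSMUSG00000049382, chromosome 15, 101996698 to 102004482, minus strand), the main type II keratin of simple epithelia, had no read in 2H-11. It was at 3.97, 3.03 and 2.62 CPM in SVEC4-10, from 17, 11 and 44 reads, so it was low there too. Against the limit of 0.196 CPM it was at least 16.4-fold lower in 2H-11 (edgeR adjusted p = 8.78e-06). That bound fell to 10.6-fold without 2H-11 replicate 1 and to 10.1-fold without 2H-11 replicate 3.

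The type I partners did not follow Krt8 together. Krt18 (ENSMUSG00000023043, chromosome 15, 102028180 to 102032027, plus strand), the usual partner of Krt8, was near the detection limit in both lines. Its libraries held 2, 1 and 0 reads in 2H-11 and 6, 2 and 13 reads in SVEC4-10, which is 0.205 ± 0.189 against 0.909 ± 0.441 CPM. Reads over library totals gave a ratio of 4.34 of SVEC4-10 over 2H-11, with an exact 95% counting interval of 1.30 to 22.7. This ratio was 2.69 (0.802 to 14.1) without 2H-11 replicate 3 and 8.44 (1.36 to 349) without 2H-11 replicate 1. Krt19 (ENSMUSG00000020911, chromosome 11, 100140810 to 100148665, minus strand), the shortest keratin and one that lacks a tail domain, went the opposite way. It was at 30.1, 19.0 and 17.0 CPM in 2H-11, against 0.467, 0 and 0.119 CPM in SVEC4-10, where it had 4 reads in all. The fitted fold was 113 (log2 fold change 6.82, SE 0.50, edgeR adjusted p = 4.93e-09). With 2 reads left in SVEC4-10, the ratio of summed reads was 226 (95% counting interval 62.1 to 1875) without SVEC4-10 replicate 1 and 87.6 (24.1 to 726) without SVEC4-10 replicate 3.

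The summed level of the 4 simple keratins was 31.1, 20.2 and 18.4 CPM in 2H-11, against 23.4, 13.2 and 11.3 CPM in SVEC4-10, so the lines overlapped (1.49-fold, exact two-sided permutation test over libraries, p = 0.3, where the smallest possible p is 0.1). Per kilobase of annotated transcript the sum was 19.5, 12.5 and 11.1 in 2H-11, against 7.58, 4.29 and 3.86 in SVEC4-10. On that scale the lines did not overlap (2.78-fold, exact two-sided permutation test, p = 0.1). The wider gap comes from dividing Krt7 by 4094 bases and Krt19 by 1576. A direct RNA read comes from a single molecule, so the CPM sum needs no such division. The ratio of type II reads (Krt7 and Krt8) to type I reads (Krt18 and Krt19) was 0.0183, 0.0506 and 0.0808 in 2H-11, against 11.5, 23.0 and 11.7 in SVEC4-10. The mean log2 difference was -8.43, and the exact two-sided permutation test gave p = 0.1, the smallest it can give with 3 libraries against 3. The 2H-11 ratios rest on only 3, 4 and 8 type II reads, and without 2H-11 replicate 1 the difference was -7.83. Counted over every keratin in the table, 25 of type II and 28 of type I by gene number, the ratio was 0.147, 0.192 and 0.160 in 2H-11, against 1.07, 0.709 and 0.823 in SVEC4-10. That wider count, chosen after the values were seen, kept the direction with a smaller difference, -2.37 on the log2 scale.

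**Figure D2:**
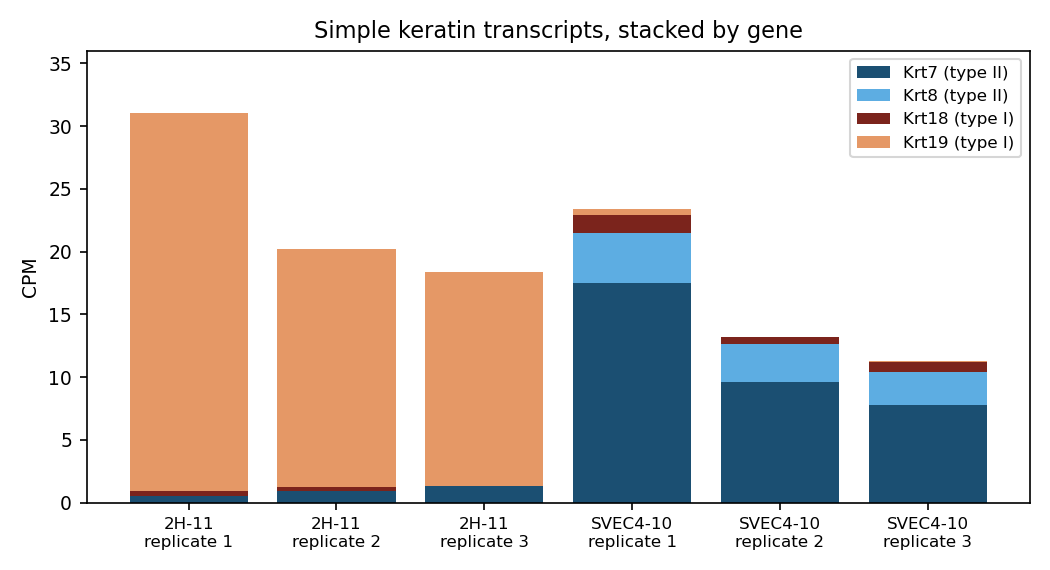
Stacked CPM of Krt7, Krt8 (type II, blue) and Krt18, Krt19 (type I, red and orange) in each library, 2H-11 left and SVEC4-10 right. The 2H-11 bars are nearly all Krt19, at 17.0 to 30.1 CPM, and the SVEC4-10 bars are mostly Krt7, at 7.80 to 17.5 CPM.

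Krt8 and Krt18 are neighbours, 23697 bases apart and transcribed away from each other, and Krt18 is the type I gene that lies in the type II cluster of chromosome 15. The other 27 type I keratins in the table are on chromosome 11. The 250 bases upstream of the RefSeq start are shown for Krt7, Krt8 and Krt18, because Krt7 differed and Krt8 and Krt18 form an adjacent pair with 0 and 3 reads in 2H-11 (GRCm38.p6, in gene orientation, 5′ to 3′). They are chr15:101412153-101412402 on the plus strand, chr15:102004343-102004592 on the minus strand and chr15:102027966-102028215 on the plus strand. Capitals mark matches to 4 motifs searched on both strands: TATAAA for the TATA box, GGGCGG for the GC box, CCAAT for the box named by these letters, and TGANTCA for the AP-1 site. No 2 matches overlap in the windows shown. GENCODE also annotates earlier starts, so 250 bases of the Krt7 window, 140 of the Krt8 window and 36 of the Krt18 window lie inside the annotated gene, of which 162, 140 and 36 are exonic.
Krt7: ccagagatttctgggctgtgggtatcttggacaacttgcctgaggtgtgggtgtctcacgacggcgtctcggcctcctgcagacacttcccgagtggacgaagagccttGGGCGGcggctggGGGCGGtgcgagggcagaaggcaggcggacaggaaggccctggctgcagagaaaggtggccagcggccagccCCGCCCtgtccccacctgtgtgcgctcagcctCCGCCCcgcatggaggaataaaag
Krt8: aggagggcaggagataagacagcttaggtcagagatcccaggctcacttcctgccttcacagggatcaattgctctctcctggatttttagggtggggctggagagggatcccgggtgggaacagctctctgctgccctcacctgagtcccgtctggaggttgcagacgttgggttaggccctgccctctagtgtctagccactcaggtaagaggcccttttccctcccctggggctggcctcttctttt
Krt18: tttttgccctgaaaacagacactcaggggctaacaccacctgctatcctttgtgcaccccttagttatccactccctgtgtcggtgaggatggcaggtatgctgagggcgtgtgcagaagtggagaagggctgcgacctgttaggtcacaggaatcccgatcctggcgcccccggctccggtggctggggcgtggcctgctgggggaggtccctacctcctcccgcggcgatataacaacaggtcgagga
The Krt7 window held 4 GC boxes, which began 141, 128, 56 and 24 bases upstream of the start. The Krt8 and Krt18 windows held no match to any of the 4 letter strings. Of 32851 windows in the RefSeq table, 32.7% had a GC box, 12.4% a TATA box, 33.8% a CCAAT box and 6.75% an AP-1 site. The G and C share was 66.0% in the Krt7 window with 16 CpG, 58.0% with 3 CpG for Krt8 and 60.4% with 12 CpG for Krt18, beside medians of 52.4% and 6 CpG over all windows.

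The rest of the keratin family was mostly silent. Of 49 other keratin genes 33 had no read in any library, and 41 stayed under 1 CPM in all of them. Only Krt10, Krt14 and Krt80 could be tested, and 0 were called by edgeR, DESeq2 or limma-voom, nor was any under an unadjusted edgeR p of 0.05. Krt10, a type I chain of differentiated epidermis, was at 12.8, 17.8 and 16.1 CPM in 2H-11, against 13.1, 11.02 and 12.4 CPM in SVEC4-10 (edgeR adjusted p = 0.442). Krt14, a type I chain of basal epidermis, averaged 7.13 ± 0.952 CPM in 2H-11, compared with 8.56 ± 2.51 CPM in SVEC4-10 (edgeR adjusted p = 0.476). Krt80, a type II chain and the coding gene next to Krt7 at lower coordinates, averaged 5.57 ± 1.40 CPM in 2H-11, compared with 4.82 ± 1.19 CPM in SVEC4-10 (edgeR adjusted p = 0.908). Krt13 and Krt15, type I chains of stratified epithelia, were below the filter. Krt13 had 13, 7 and 13 reads in 2H-11 and 0, 1 and 4 in SVEC4-10, and Krt15 had 0, 2 and 2 reads in 2H-11 and 5, 10 and 4 in SVEC4-10. The count of these other keratins called as higher moved in 4 alternatives, and the count called as lower in none. Without 2H-11 replicate 2, SVEC4-10 replicate 1 or SVEC4-10 replicate 2, the fit called 1 as higher in 2H-11. The filter was applied anew in each alternative, so that gene need not be Krt10, Krt14 or Krt80.

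Vimentin was the dominant cytoplasmic filament transcript in both lines. Vim (ENSMUSG00000026728, chromosome 2, 13573927 to 13582826, plus strand) was at 1549, 1297 and 1303 CPM in 2H-11, against 1008, 1450 and 1121 CPM in SVEC4-10. The libraries overlapped, and the interval of the fold reached from 0.836 to 1.39 (95%, log2 fold change 0.11, SE 0.17, edgeR adjusted p = 0.673). Desmin (ENSMUSG00000026208, chromosome 1, 75360329 to 75368579, plus strand), the type III chain of muscle, was low in both. It stood at 3.72, 4.14 and 2.23 CPM in 2H-11, from 20, 17 and 13 reads, against 1.40, 0.827 and 0.476 CPM in SVEC4-10, from 6, 3 and 8 reads. No library of one line reached the other, and desmin was 4.04-fold higher in 2H-11 (log2 fold change 2.01, SE 0.48, edgeR adjusted p = 0.0029). Without SVEC4-10 replicate 3 the fold was smaller and the call was lost (log2 fold change 1.41, edgeR adjusted p = 0.0777), and without 2H-11 replicate 1, or with libraries thinned to 1 depth, desmin did not pass the filter. Peripherin (Prph), a type III chain known from peripheral neurons, was higher as well. It was at 39.6, 50.4 and 61.4 CPM in 2H-11, against 12.2, 11.02 and 9.64 CPM for SVEC4-10 (log2 fold change 2.14, SE 0.24, edgeR adjusted p = 1e-06).

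Nestin (ENSMUSG00000004891, chromosome 3, 87971078 to 87980451, plus strand) was read in 2H-11 alone. It was at 47.6, 45.8 and 51.5 CPM in 2H-11, from 256, 188 and 300 reads, and had no read in any of the 3 SVEC4-10 libraries. Against the limit of 0.121 CPM it was at least 398-fold higher in 2H-11 (edgeR adjusted p = 1e-10), and at least 127-fold higher without SVEC4-10 replicate 3, which held most of that line's reads. Nestin marks neural progenitors, young muscle and proliferating endothelium. The other markers of the first of these were near 0: of 8 neural progenitor genes, Sox1, Sox2, Hes5 and Olig2 had no read, and the list summed to between 0 and 1.71 CPM in 2H-11 and between 0 and 0.276 CPM in SVEC4-10. Its most abundant genes were Msi1 and Fabp7, at 0.334 ± 0.290 and 0.358 ± 0.366 CPM in 2H-11, against 0.132 ± 0.138 CPM and no read in SVEC4-10.

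Markers of skeletal and cardiac muscle, which bear on desmin, were also sparse. Of 12 such genes 10 stayed under 1 CPM in every library, with Myod1, Myog, Myf5 and Pax7 at 0. The list summed to between 11.5 and 14.8 CPM in 2H-11 and between 3.97 and 7.14 CPM in SVEC4-10. Most of this was cardiac troponin T, Tnnt2, at 10.4 ± 1.79 CPM in 2H-11, compared with 4.98 ± 1.13 CPM for SVEC4-10 (log2 fold change 0.93, edgeR adjusted p = 0.0226). That call was lost without 2H-11 replicate 3 or SVEC4-10 replicate 1. Skeletal actin Acta1 averaged 2.38 ± 0.370 CPM in 2H-11, compared with 0.763 ± 0.464 CPM in SVEC4-10, and was not tested. The part of muscle genes in the desmin result was not tested.

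The upstream windows of Vim and Nes are shown as the abundant shared transcript and the one that was read in 1 line alone. They are chr2:13574061-13574310 and chr3:87970843-87971092, both on the plus strand of GRCm38.p6, with capitals as above. All 250 bases of the Vim window and 15 of the Nes window lie in an annotated exon of that gene.
Vim: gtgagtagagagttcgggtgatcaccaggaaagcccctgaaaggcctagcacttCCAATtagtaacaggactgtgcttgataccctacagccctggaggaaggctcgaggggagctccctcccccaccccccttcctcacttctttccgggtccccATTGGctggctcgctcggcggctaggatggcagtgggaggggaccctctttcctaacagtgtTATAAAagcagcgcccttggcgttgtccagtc
Nes: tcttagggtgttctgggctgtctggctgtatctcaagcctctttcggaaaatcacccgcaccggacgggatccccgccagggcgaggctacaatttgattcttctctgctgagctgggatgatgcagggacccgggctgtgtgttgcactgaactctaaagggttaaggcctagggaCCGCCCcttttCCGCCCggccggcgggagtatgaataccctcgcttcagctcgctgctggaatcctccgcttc
The Vim window held a TATA box 32 bases upstream of the start and CCAAT boxes beginning 196 bases upstream and, on the opposite strand, 94 bases upstream. The Nes window held 2 GC boxes on the opposite strand, beginning 73 and 62 bases upstream, and no TATA box match. The G and C share was 58.4% with 8 CpG for Vim and 58.8% with 15 CpG for Nes. These matches describe letters in a window, and binding was not measured.

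**Figure D3:**
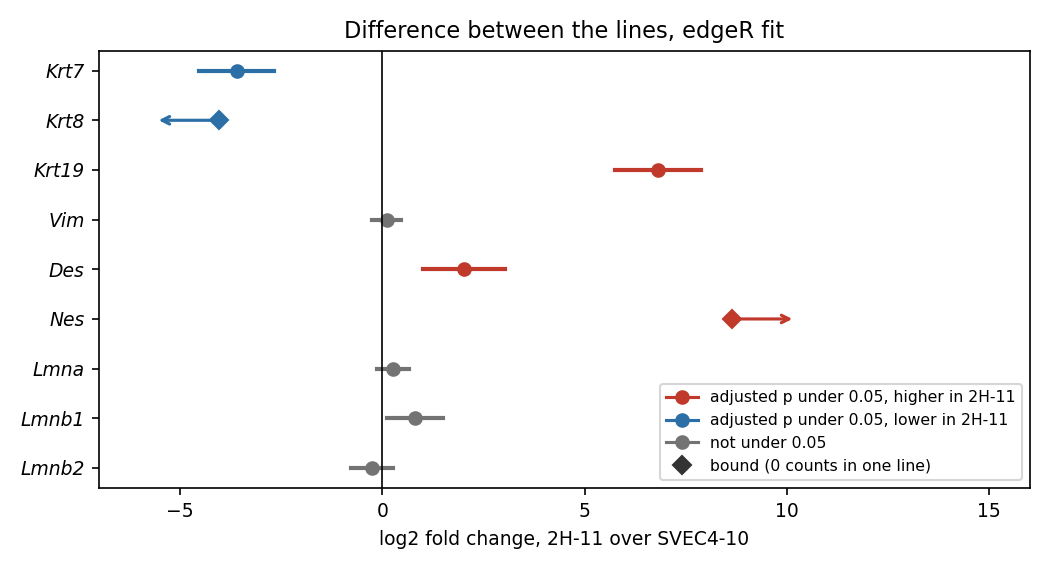
log2 fold change of 2H-11 over SVEC4-10 for the 9 tested members, with the 95% interval of the edgeR fit as a bar; red and blue are higher and lower in 2H-11 at an adjusted p under 0.05, and grey did not pass. Diamonds with arrows mark the bounds of Nes, at least 398-fold higher, and of Krt8, at least 16.4-fold lower, each with 0 reads in 1 line.

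The nuclear lamins differed less. Lmna (ENSMUSG00000028063, chromosome 3, 88480147 to 88509956, minus strand) was at 169, 177 and 225 CPM in 2H-11, against 134, 131 and 180 CPM in SVEC4-10. The libraries overlapped, and the fold had a 95% interval of 0.914 to 1.58 (log2 fold change 0.27, SE 0.19, edgeR adjusted p = 0.296). Reads were summed per gene, so lamins A and C, which are splice forms of Lmna, were not separated. Lmnb2 (ENSMUSG00000062075, chromosome 10, 80901203 to 80918245, minus strand) was at 29.0, 43.4 and 48.2 CPM in 2H-11, against 49.3, 28.9 and 56.3 CPM in SVEC4-10. It overlapped too, with a fold interval of 0.585 to 1.20 (edgeR adjusted p = 0.463).

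Lmnb1 (ENSMUSG00000024590, chromosome 18, 56707813 to 56753424, plus strand), the B-type lamin known to fall in senescent cells, lay at the threshold. It was at 23.1, 25.8 and 20.4 CPM in 2H-11, against 8.18, 6.06 and 20.3 CPM in SVEC4-10. The libraries did not overlap, but SVEC4-10 replicate 3 lay next to the lowest 2H-11 library and far from the other two of its line. The fold was 1.74 with a 95% interval of 1.08 to 2.81, and the adjusted p missed the threshold (log2 fold change 0.80, SE 0.33, edgeR adjusted p = 0.0655). Without SVEC4-10 replicate 3 the log2 fold change was 1.55 and the edgeR adjusted p was 0.000669, and over all alternatives the adjusted p ran from 0.000669 to 0.254. With all 6 libraries it passed with a replicate block, with no filter (0.0244), when libraries were thinned to 1 depth (0.0118) and on Ensembl identifiers alone (0.0395). Genes with a principal transcript of at least 2500 bases, as Lmnb1 has, had a median log2 ratio of 0.03 in SVEC4-10 replicate 3 over the mean of replicates 1 and 2, against -0.09 for shorter genes. The part of depth or transcript length in the Lmnb1 values was not tested.

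The balance of lamin types was similar in range. Lmna reads over the sum of Lmnb1 and Lmnb2 reads were 3.25, 2.56 and 3.27 in 2H-11, against 2.33, 3.74 and 2.35 in SVEC4-10 (exact two-sided permutation test, p = 0.8). Within the B types, Lmnb1 over Lmnb2 was 0.795, 0.596 and 0.423 in 2H-11, against 0.166, 0.210 and 0.361 in SVEC4-10. These did not overlap (exact two-sided permutation test, p = 0.1, the smallest possible), and the ratio was added after the values were seen. All 3 lamin genes together summed to 254 ± 36.6 CPM in 2H-11, compared with 205 ± 46.8 CPM in SVEC4-10 (exact two-sided permutation test, p = 0.3). Mitosis markers, a readout of dividing cells, went both ways, with 2 of 12 higher, 2 lower and a median log2 fold change of 0.07. Birc5 was at 383 ± 23.8 CPM in 2H-11, compared with 217 ± 24.3 CPM in SVEC4-10 (edgeR adjusted p = 0.00188), and Cdk1 at 496 ± 49.8 CPM in 2H-11, compared with 724 ± 71.98 CPM in SVEC4-10 (edgeR adjusted p = 0.00356). Without 2H-11 replicate 3, 4 of them were higher, and without 2H-11 replicate 1 or 2, or SVEC4-10 replicate 2 or 3, 1 was. The higher count was also 1 with all libraries, under a replicate block or with no filter.

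**Figure D4:**
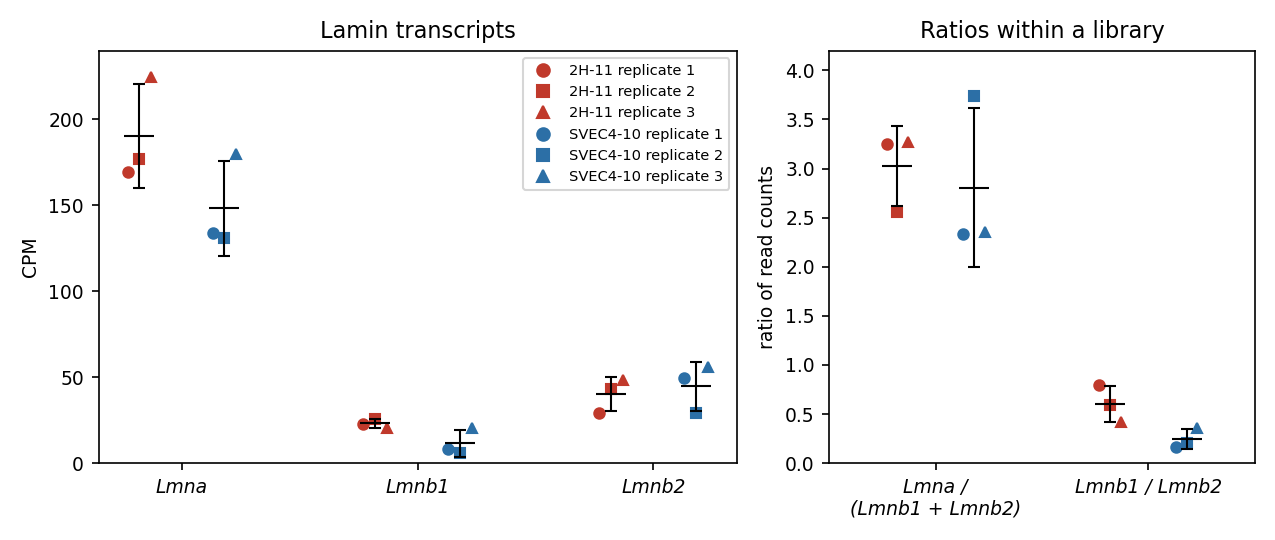
Left, CPM of Lmna, Lmnb1 and Lmnb2 in each library; right, read ratios within each library; red is 2H-11, blue SVEC4-10, symbols are replicates, and black bars are the mean ± SD of a line (n = 3). For Lmnb1, SVEC4-10 replicate 3 at 20.3 CPM sits beside the 2H-11 libraries, and the ratios of A-type to B-type lamins overlap between the lines.

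Partners of the filaments were read from lists drawn up around the members. Of 19 cytolinkers and keratin partners 10 were tested, with 2 higher, 2 lower and a median log2 fold change of -0.05. Jup, plakoglobin of desmosomes and adherens junctions, was at 14.7, 13.4 and 14.1 CPM in 2H-11, against 57.0, 31.1 and 36.4 CPM for SVEC4-10 (log2 fold change -1.64, SE 0.23, edgeR adjusted p = 1.98e-05). Pkp4, a plakophilin-related armadillo protein, was at 61.4, 64.8 and 51.5 CPM in 2H-11, against 18.7, 13.8 and 37.6 CPM for SVEC4-10 (log2 fold change 1.19, SE 0.28, edgeR adjusted p = 0.00236). Pkp1 was the other higher gene and Macf1 the other lower one. Desmoplakin (Dsp), which ties keratins to desmosomes, had 1 read in 2H-11 and 0 in SVEC4-10, and Dsc3 and Pof1b had none. The giant cytolinker Plec, which binds vimentin and keratins, averaged 69.1 ± 7.87 CPM in 2H-11, compared with 52.8 ± 15.3 CPM in SVEC4-10 (edgeR adjusted p = 0.328). Without 2H-11 replicate 2 or 3, or SVEC4-10 replicate 1 or 2, 1 gene of this list was higher, and without 2H-11 replicate 2, 1 was lower. The higher count was also 1 with all libraries, under a filter of 20 counts in 3 libraries or when thinned to 1 depth. Of 12 further filament genes outside the keratins only 3 were tested, and Prph was the 1 called, with Iffo1 at 18.4 ± 6.40 CPM in 2H-11, compared with 10.8 ± 4.29 CPM in SVEC4-10 (edgeR adjusted p = 0.132). Without SVEC4-10 replicate 3, or when libraries were thinned to 1 depth, 2 of the 12 were higher. The filter was applied anew there, so these need not be among the 3.

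Around the lamins, 19 of 21 lamina and LINC complex partners were tested, with 2 higher and 4 lower and a median log2 fold change of -0.29. Tmpo, which encodes the lamin-binding LAP2 proteins, was at 36.3, 39.7 and 54.8 CPM in 2H-11, against 90.5, 95.9 and 101 CPM for SVEC4-10 (log2 fold change -1.22, SE 0.21, edgeR adjusted p = 0.000119). Tor1aip2, an activator of torsin in the nuclear envelope and endoplasmic reticulum, was at 88.0, 84.5 and 68.1 CPM in 2H-11, against 155, 186 and 166 CPM for SVEC4-10 (log2 fold change -1.18, SE 0.18, edgeR adjusted p = 4.16e-05). Tor1aip1 and Syne2 were the other lower genes, and Syne1 and Tmem43 the higher ones. With all libraries, the higher count was 1 under DESeq2 or a replicate block and 3 when libraries were thinned to 1 depth. It was also 1 without 2H-11 replicate 1 or SVEC4-10 replicate 2, and 0 without 2H-11 replicate 2 or SVEC4-10 replicate 3. Among 6 genes of lamin farnesylation and cleavage, Icmt, which methylates the processed tail, was the 1 called, at 22.4 ± 5.79 CPM in 2H-11, compared with 12.5 ± 0.621 CPM for SVEC4-10 (log2 fold change 0.76, edgeR adjusted p = 0.0228). That call was lost without 2H-11 replicate 3, SVEC4-10 replicate 1 or SVEC4-10 replicate 2. Fntb, a farnesyltransferase subunit, averaged 12.2 ± 2.86 CPM in 2H-11, compared with 7.02 ± 1.82 CPM in SVEC4-10 (edgeR adjusted p = 0.0778).

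Markers of cell types known for these keratins were set beside them. Mesothelial genes were far lower in 2H-11: of 7 tested, 6 were lower and Efemp1 was higher, and the 10 listed summed to between 69.0 and 83.2 CPM in 2H-11 and between 3417 and 4327 CPM in SVEC4-10. The uroplakin gene Upk1b was at 0.434 ± 0.228 CPM in 2H-11, compared with 1387 ± 87.4 CPM in SVEC4-10 (edgeR adjusted p = 6.36e-15). Its relative Upk3b was at 0.644 ± 0.248 CPM in 2H-11, compared with 1402 ± 407 CPM in SVEC4-10 (edgeR adjusted p = 1.57e-14). Krt7 and Krt8 were thus lower in the line with fewer of these transcripts, and Krt19, which mesothelium also makes, was higher in it. General epithelial genes were near 0 in both lines. Of 12, 11 stayed under 1 CPM in every library, Epcam, Cdh1 and Esrp1 had no read, and the sum was 2.42 to 2.68 CPM in 2H-11, against 1.93 to 2.81 CPM in SVEC4-10. Most of that was the splicing factor Esrp2, at 1.72 ± 0.440 CPM in 2H-11, compared with 2.08 ± 0.630 CPM in SVEC4-10, with Elf3 at 0.220 ± 0.247 CPM in 2H-11, compared with 0.0919 ± 0.159 CPM in SVEC4-10. Of the endothelial genes, Egfl7 was the 1 tested and was higher, at 5.40 ± 1.35 CPM in 2H-11, compared with 0.787 ± 0.0745 CPM in SVEC4-10 (edgeR adjusted p = 6.45e-05), and Kdr averaged 0.224 ± 0.246 CPM in 2H-11, compared with 0.303 ± 0.280 CPM in SVEC4-10. The part of these cell type differences in the keratin results was not tested.

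**Figure D5:**
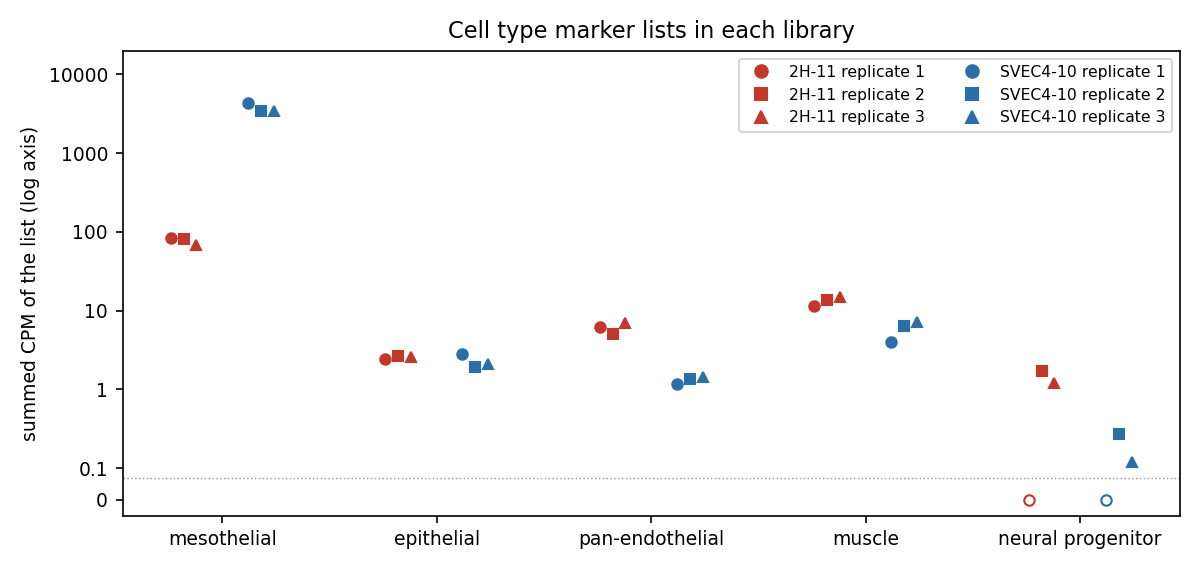
Summed CPM of 5 marker lists in each library, on a log axis with 0 as open symbols below the dotted line; red is 2H-11, blue SVEC4-10, and symbols are replicates. Mesothelial markers lie at 69.0 to 83.2 CPM in 2H-11 and at 3417 to 4327 CPM in SVEC4-10, while the epithelial list overlaps between the lines under 3 CPM.

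The 2 nearest coding genes on each side were looked up for Krt7, Krt8, Krt18, Krt19, Nes, Vim and Lmnb1. The gene upstream of Nes is Crabp2, a retinoic acid carrier whose annotated end lies 17701 bases away (chromosome 3, 87948666 to 87953376, plus strand). It showed the same direction, with 8.74, 10.5 and 12.2 CPM in 2H-11, against 0.234, 0 and 0.119 CPM for SVEC4-10 (log2 fold change 6.14, SE 0.53, edgeR adjusted p = 4.51e-08). On the other side of Nes, Bcan had 1 read in 2H-11 and none in SVEC4-10, and Hapln2 had none in either. Beside Krt8 and Krt18, the keratins Krt78 and Krt79 had no read, whereas the translation factor gene Eif4b next to Krt18 was read in every library and was higher in 2H-11 (log2 fold change 0.59, edgeR adjusted p = 0.0176). Tns2, the next gene beyond Eif4b, was higher too (log2 fold change 0.94, edgeR adjusted p = 0.00698). Krt19 lies between Krt15 and Krt9, and Krt9 had no read. Krt13, the next gene beyond Krt15, went the same way as Krt19, with 13, 7 and 13 reads in 2H-11 and 0, 1 and 4 in SVEC4-10. Krt15 had 0, 2 and 2 reads in 2H-11 and 5, 10 and 4 in SVEC4-10. Both were below the filter. Higher in 2H-11 were also Hacd1 near Vim (log2 fold change 0.65, edgeR adjusted p = 0.0456) and C330018D20Rik near Lmnb1 (log2 fold change 0.77, edgeR adjusted p = 0.0433). Tested and not called were Isg20l2 near Nes, Krt80 near Krt7, Krt14 near Krt19, Trdmt1 near Vim and Phax near Lmnb1. Their edgeR adjusted p ran from 0.366 to 0.908, and over all genes tested 36.2% were called. All neighbours were looked at after the members' values were known.

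The genes whose profile over the 6 libraries was closest to those of Krt8 and Vim were found among 3060 candidates with at least 50 CPM in their higher line, by the root mean square difference of centred log2(CPM + 0.5) values. For Krt8 they were Dusp6 and Id1, each 0.11 away, and Gsta4, 0.12 away. They were 8.15, 6.94 and 7.36-fold lower in 2H-11. Krt8 was at 0 there, so its own profile, and with it this choice of genes, depends on the pseudocount. For Vim they were Eif2b3 at 0.029, Tuba1b at 0.052 and Tmem199 at 0.061.

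The members were put in order of level per kilobase of the annotated principal transcript, which need not be the length that was read. A direct RNA read comes from a single molecule, so CPM needs no division by length, and this order lowers long transcripts. In CPM, Nes (48.3) stood above Lmnb2 (40.2), Lmnb1 (23.1) and Krt19 (22.0) in 2H-11, and Krt7 (11.7) beside Lmnb1 (11.5) in SVEC4-10. Sums, ratios and shares of several genes given above in reads or CPM are not scaled by length. In 2H-11 the order in CPM per kilobase was Vim (631 ± 65.5), Lmna (60.3 ± 9.53), Krt19 (13.99 ± 4.49), Lmnb2 (11.9 ± 2.96), Lmnb1 (8.13 ± 0.949), Nes (7.89 ± 0.475), Des (1.11 ± 0.331), Krt7 (0.237 ± 0.0995), Krt18 (0.143 ± 0.132) and Krt8 at 0. Krt19 and Lmnb2, Lmnb1 and Nes, and Krt7 and Krt18 were closer to each other than the larger of their SDs. In SVEC4-10 the order was Vim (544 ± 105), Lmna (47.0 ± 8.72), Lmnb2 (13.3 ± 4.21), Lmnb1 (4.05 ± 2.70), Krt7 (2.85 ± 1.26), Krt8 (1.64 ± 0.355), Krt18 (0.633 ± 0.307), Des (0.298 ± 0.154), Krt19 (0.124 ± 0.154) and Nes at 0. There Lmnb1 and Krt7, Krt7 and Krt8, and Krt19 and Nes were the neighbours closer to each other than the larger of their SDs. The summed keratin level per kilobase was 14.4 ± 4.51 in 2H-11 and 5.24 ± 2.04 in SVEC4-10, a wider gap than in CPM. The annotated Krt7 transcript used for this is 4094 bases long.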

How the data were processed

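Libraries were made from 1 ug of Trizol-extracted total RNA with the nanopore direct RNA kit SQK-RNA002, per the labels' protocols. Builds mm10 and GRCm38 are named in the submitters' processing notes. For the aligner, counter, annotation and strand use, the sources here give no statement, and reads of close paralogs or processed copies may be shared. The authors deposited raw read counts per gene and the same counts as CPM; CPM was recomputed from the counts. The 13 lines that hold broken-off annotation text and no counts were dropped.

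All 34724 genes entered 1 comparison, 2H-11 over SVEC4-10, with edgeR 4.0.16 in R 4.3.3 (filterByExpr with minimum count 10 and minimum total 15, TMM scaling, quasi-likelihood test, Benjamini-Hochberg threshold 0.05); the biological coefficient of variation was 20.2%. The fit was tested on simulated data. SEs are the log2 fold change over the root of its F. Bounds use 3 counts and intervals are at 95%. Sums and ratios were compared with an exact permutation test. Coordinates and lengths came from GENCODE M21, which held 22022 of the 22036 Ensembl identifiers, and upstream sequences from RefSeq (GRCm38.p6), which held 8 of the 10 members. Alternatives were a replicate block, DESeq2 1.42.0, limma-voom (limma 3.58.1), other scalings and filters, thinning, Ensembl identifiers alone, and leaving out each library. The members and lists were chosen with earlier results of these data known. Named list genes were the 2 with the smallest p, or the most abundant where fewer than 2 were tested, plus other keratins at 1 CPM or more; further names were chosen after their values were seen. Python 3.11.15, pandas 2.3.3, scipy 1.17.1 and matplotlib 3.10.9 made the tables and figures.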

Additional observations from a re-analysis of the deposited data

How the results depend on the processing

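Nes, Krt19 and Krt7 kept their direction and their call under all 15 alternatives, and Krt8 under the 13 in which it could be tested. The count of members called was 3 with a filter of 20 counts in 3 libraries, where Krt8 and Des had too few reads to be tested, as also when thinned, and between 4 and 6 elsewhere. Vim changed sign without SVEC4-10 replicate 1, with log2 fold changes of -0.08 to 0.26 when single libraries were left out, none of them called. Lmnb1 passed the threshold with the replicate block (log2 fold change 0.99, edgeR adjusted p = 0.034), with no filter (0.0244), when thinned (0.0118) and on Ensembl identifiers alone (0.0395). Replicate numbers did not pair the libraries, with correlations of -0.02, 0.05 and -0.01 between the deviations of same-numbered libraries, and the replicate block gave 4461 calls against 4778. Ensembl identifiers alone, 22036 of the 34724 genes, gave 1657 genes higher against 2645 from the full set, and moved the median log2 fold change by 0.10. The 36.2% called over all genes tested includes loci without an Ensembl identifier. The summed simple keratin difference was 1.48 per kilobase against 0.57 in CPM on the log2 scale, since it divides by unequal transcript lengths, and the type II over type I difference was -2.37 over all keratins against -8.43. The ratio of Krt8 to Krt18 was 2.83, 5.50 and 3.38 in SVEC4-10 and was not compared, as 2H-11 had no Krt8 read. Counts under about 20 reads a line, as for Krt18, limit what these libraries can show.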

Other observations

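Reads of some keratins of stratified and corneal epithelium were unevenly spread over the libraries. Krt4, Krt5, Krt6a, Krt12 and Krt16, picked after their values were seen, together had 0, 20 and 14 reads in 2H-11 replicates 1 to 3 and 0, 22 and 0 reads in SVEC4-10 replicates 1 to 3. This is 4.87 and 2.40 CPM in 2H-11 replicates 2 and 3 and 6.06 CPM in SVEC4-10 replicate 2. The 0 in SVEC4-10 replicate 3, the most deeply read library, allows at most 0.179 CPM, and the zeros in 2H-11 replicate 1 and SVEC4-10 replicate 1 allow 0.558 and 0.701 CPM, for counting error only. The uneven reads followed single libraries of both lines and not a line. Krt7, Krt8, Krt18 and Krt19 did not show that spread. Other keratins of stratified epithelium did not share it either. Krt14 was read in every library, with 33, 33 and 42 reads in 2H-11 and 37, 40 and 101 in SVEC4-10. Krt13 had 13, 7 and 13 reads in 2H-11 and 0, 1 and 4 in SVEC4-10. The source of the uneven reads was not tested.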
